A study of Homo sapiens with 6 samples.

Results

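Expression of 10 heat shock response genes was examined in libraries labelled HCT-116, an established human colon carcinoma line. The genes were HSF1, HSPA1A, HSPA1B, HSPA8, HSPH1, HSPB1, HSPE1, DNAJB1, HSP90AA1 and BAG3, chosen by symbol among the 60546 gene identifiers of the deposited table. Of the 10, 8 passed a filter on low values and were tested, while HSPA1A and HSPA1B were at or under 3 reads in every library. Both groups were stable lines made by viral infection and grown in DMEM with fetal bovine serum, and neither was heated in the labels or the study's methods. Those methods state puromycin selection of the GOLPH3 overexpression lines and do not name the Vector line in that step. HCT-116-PMSCV-GOLPH3 carried the PMSCV vector with the cDNA of GOLPH3, a Golgi phosphoprotein, and HCT-116-PMSCV-Vector carried the empty vector. Each group had 3 RNA libraries, which the study's methods describe as coming from different generations of the lines. Their titles carry a number after P, which was 8, 12 and 13 for GOLPH3 and 12, 11 and 13 for Vector, and libraries are named below by group and P number. Whether a line was 1 clone, and what the P number stands for, is not given in the sources used here.

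HSF1 is the transcription factor that binds heat shock elements and switches on chaperone genes when unfolded proteins accumulate. Its targets include the HSP70 chaperones, the HSP110 exchange factor HSPH1, the co-chaperones DNAJB1 and BAG3, the HSP90 chaperone HSP90AA1, the small heat shock protein HSPB1 and the mitochondrial co-chaperonin HSPE1. Cancer cells often run this programme without any heat, and HSP90 and HSP70 in turn hold HSF1 inactive in unstressed cells.

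The libraries held 15708846 to 21900764 reads, and the deposited values, reads scaled by 1 factor for each library, are called normalized reads here. GOLPH3 itself had 1629.5, 1272 and 1383 normalized reads in the P8, P12 and P13 libraries labelled GOLPH3 and 1968, 1892 and 1472 in the P12, P11 and P13 libraries labelled Vector. Its transcript was therefore not higher in the libraries labelled GOLPH3 (log2 difference -0.31 ± 0.27 SE, limma adjusted p = 0.609), and groups are named by their labels. The epithelial markers EPCAM, KRT8, KRT18 and CDH1 were present in every library, whereas the colon markers VIL1, LGALS4 and CDX1 were at 0 to 5.37 normalized reads and CDX2 was at 184 to 897, highest in Vector P13. The 8 epithelial and colon markers summed to 47211 to 105317 normalized reads in the GOLPH3 group and 24717 to 35016 in the Vector group, although CDX2 was not higher (log2 difference -0.52, limma adjusted p = 0.636). The 8 markers of other cells (VIM, CDH2, ZEB1, ZEB2, IRS4, UCHL1, ROBO1 and HAND1) summed to 37.4 to 154 in the GOLPH3 group and 5606 to 16212 in the Vector group. All 8 were called lower by limma (adjusted p under 0.05), beside 5.07% of all genes called in either direction. Both marker lists were chosen with earlier results of these data known, so these calls are no test of the groups. ZEB2, IRS4, UCHL1 and HAND1 were at 0 in every library labelled GOLPH3. These marker levels move with the group in every result below, and their part in those results was not tested. Whether the groups hold the same cells, as their shared label says, was not tested either. In bulk RNA, fewer cells of a type and less RNA per cell cannot be told apart.

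Per kilobase of merged exons, HSP90AA1 was the most abundant member, with a mean of 9250.1 normalized reads per kilobase over the 6 libraries and a range of 3971 to 16832. HSPA8, the constitutive cytosolic HSP70, followed at 5412 (1125 to 11122), and HSPB1 at 3829 (923 to 8216). DNAJB1 averaged 1191 (708 to 2104), BAG3 721 (390.4 to 1335), HSPE1 623 (386 to 869), HSPH1 471 (180.1 to 948) and HSF1 466 (189 to 754). The ranges of neighbours in this order overlapped in every case, which does not say how the genes ranked within each library. The order also depends on the length used. Merged exons and longest transcript were 1977 and 950 bases for HSPE1, and 2747 and 2571 for BAG3. The constitutive partner HSP90AB1, which is no member, stood above them all at 22717 per kilobase (14527 to 35286). The members together took 0.262% and 0.312% of all reads in the P12 libraries labelled GOLPH3 and Vector, and 0.447% to 0.932% in the other 4.

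HSPA1A and HSPA1B encode the near-identical stress-inducible HSP70 proteins and lie side by side on chromosome 6, from 31815464 to 31817946 and from 31827735 to 31830255 on the plus strand of GRCh38 (GENCODE 29). HSPA1A had 0 reads in 5 libraries and 1 read in Vector P13, and HSPA1B was listed at 0 in all 6. With no reads, a level of at most 3 reads (2.47 to 3.29 normalized reads across libraries) remains possible, a limit for counting error only. Reads from these 2 genes are hard to assign, because 72.6% of the 50-base windows of HSPA1A also occur in HSPA1B, and how reads with several matches were counted is not given in the sources used here. Genes around them were low as well. Of 97 protein-coding genes within 1 Mb of HSPA1A, 71 (73.2%) had at most 3 reads in every library, against 30.7% on the whole of chromosome 6 and 21.2% in the whole table. The adjacent HSPA1L and the HSP70 regulator BAG6 were at 0 to 10.3 normalized reads. A listed 0 here is therefore given as a listed 0 and not as absence of the transcripts. HSPA6, a strictly inducible HSP70 on chromosome 1, had 0 to 4.29 normalized reads.

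The sequences upstream of HSPA1A and HSPA1B are shown because the pair had almost no reads, and those of HSPA8 and HSPB1 because they gave the clearest values below. Each line gives the 250 bases before the transcript start, from RefSeq on GRCh38.p14, 5′ to 3′ on the gene's strand, and capitals mark heat shock element matches. They are chr6:31815293-31815542 (plus), chr6:31827488-31827737 (plus), chr11:123062137-123062386 (minus) and chr7:76302423-76302672 (plus). Distances count from the RefSeq start, which differs from the GENCODE 29 gene start used for the coordinates in the text. The HSPA8 stretch lies inside the GENCODE gene, and those of the other 3 genes run past its start.
HSPA1A: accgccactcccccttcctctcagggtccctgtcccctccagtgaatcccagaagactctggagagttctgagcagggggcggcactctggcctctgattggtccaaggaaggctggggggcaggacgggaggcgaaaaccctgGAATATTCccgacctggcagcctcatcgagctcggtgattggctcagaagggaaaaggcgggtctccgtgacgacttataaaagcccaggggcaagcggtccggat
HSPA1B: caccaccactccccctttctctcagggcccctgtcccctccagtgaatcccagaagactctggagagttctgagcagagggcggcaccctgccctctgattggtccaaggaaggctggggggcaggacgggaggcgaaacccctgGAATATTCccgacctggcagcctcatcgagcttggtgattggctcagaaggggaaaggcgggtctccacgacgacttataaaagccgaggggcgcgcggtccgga
HSPA8: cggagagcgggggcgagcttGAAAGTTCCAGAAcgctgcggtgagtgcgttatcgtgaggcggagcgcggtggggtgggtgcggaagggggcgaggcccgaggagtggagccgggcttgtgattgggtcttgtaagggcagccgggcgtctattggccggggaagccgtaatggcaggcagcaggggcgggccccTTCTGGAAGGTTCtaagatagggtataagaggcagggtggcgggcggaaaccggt
HSPB1: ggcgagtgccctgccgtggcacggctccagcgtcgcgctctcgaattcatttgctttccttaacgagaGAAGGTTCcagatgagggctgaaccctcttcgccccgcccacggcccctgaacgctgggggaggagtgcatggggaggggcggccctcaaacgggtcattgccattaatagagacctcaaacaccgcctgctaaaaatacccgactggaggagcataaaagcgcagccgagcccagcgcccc

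Matches were searched on both strands in 300 bases, of which 250 lay before and 50 after the start. The 3-unit motif GAANNTTCNNGAA was found in 0.49% of 35116 promoters in the table. The promoter of HSPA8 held 2 such matches, GAAAGTTCCAGAA starting 230 bases and TTCTGGAAGGTTC starting 55 bases before the start, and it was the only one of 9 members in the table with any (HSF1 had no entry). The 2-unit motifs GAANNTTC and TTCNNGAA, which each 3-unit match contains, occurred in 13.5% of promoters and in 4 members. HSPA1A and HSPA1B carried the same match GAATATTC at 106 and 105 bases before the start, and HSPB1 carried GAAGGTTC at 182 bases. No match says only that these letters are not in this window, which was placed at a single RefSeq start of each member. Other transcript starts of these genes were not searched. Of 3 genes that are no members, HSPD1 and HSP90AB1 had no match of either length. In the promoter of the other, DNAJA1, looked at after its values were seen, 1 3-unit match, GAACTTTCCAGAA, lay 4 bases after the start.

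**Figure D1:**
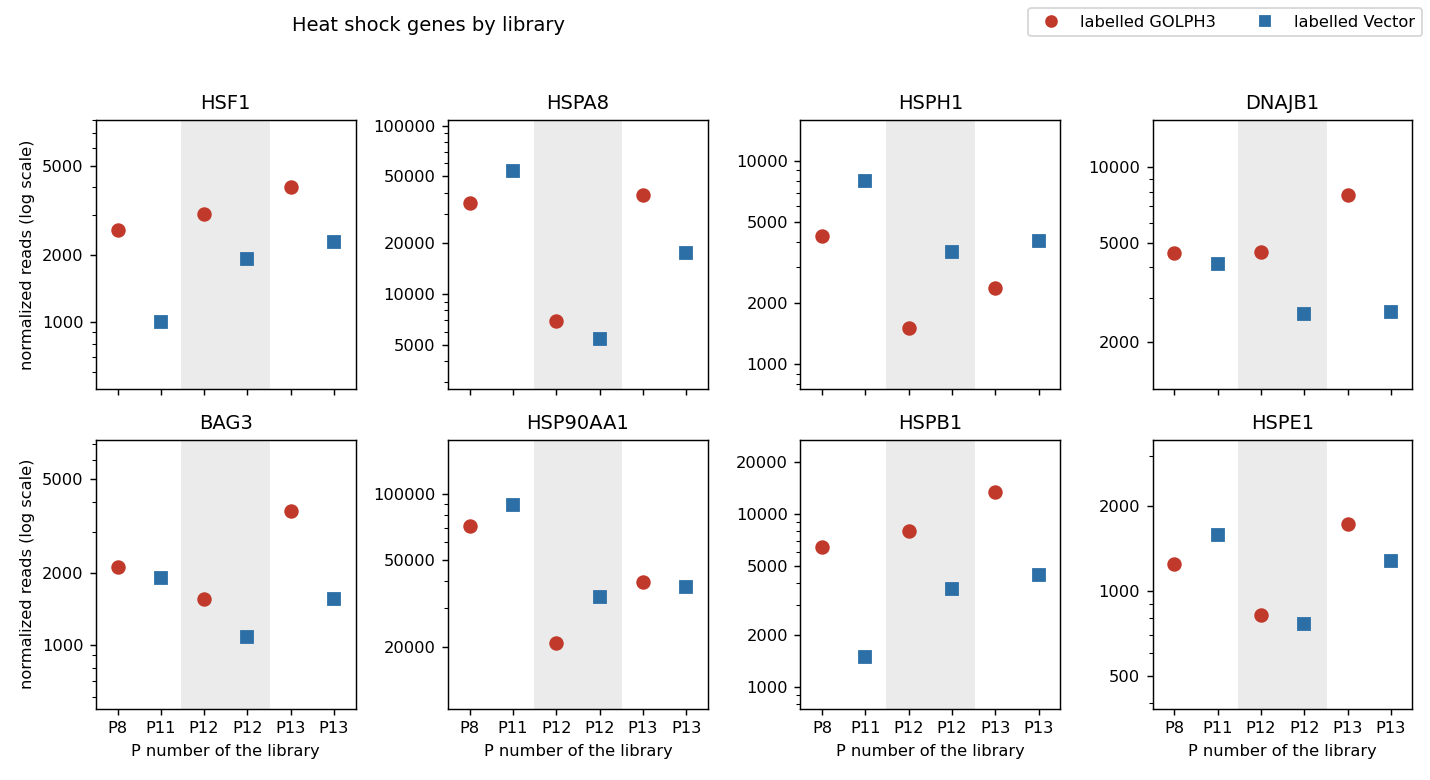
Normalized reads (log axis) of the 8 tested members in each of the 6 libraries, ordered by P number, with red circles for libraries labelled GOLPH3, blue squares for Vector and grey shading on the P12 pair. HSPA8 was 6889 and 5454 in the P12 pair and 17592 or more in the other 4, and HSF1, DNAJB1 and HSPB1 were above the highest Vector value in all 3 GOLPH3 libraries.

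The group comparison asked whether the heat shock genes differed between GOLPH3 and Vector lines. HSF1, DNAJB1 and HSPB1 were higher in all 3 libraries labelled GOLPH3 than in any labelled Vector, and HSPB1 showed the largest difference, which passed the adjusted threshold by DESeq2 but not by limma or edgeR. By limma with Benjamini-Hochberg adjustment over 26536 genes, 0 of the 8 tested members had an adjusted p under 0.05, while 5.07% of all genes did. At an unadjusted p under 0.05, 4 of 8 members passed against 17.6% of all genes, with HSF1, DNAJB1 and HSPB1 higher and HSPH1 lower. On the recovered reads, DESeq2 called 1 member, HSPB1 (8.68% of its genes with an adjusted p), and edgeR called 0 (6.58% of its genes). Groups did not overlap, with GOLPH3 higher, for 3 of the 8 members and 9.20% of all genes. An exact permutation test over 3 against 3 libraries cannot go below 0.1, and p-values measure only the spread between these libraries.

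HSF1 (chromosome 8, 144291591 to 144314722, plus strand) had 2587, 3049 and 4002 normalized reads in GOLPH3 P8, P12 and P13, and 1908, 1003 and 2278 in Vector P12, P11 and P13. The lowest GOLPH3 library lay above the highest Vector library, and Vector P11 stood below all the rest. The means were 3213 ± 721 and 1729.8 ± 656 (SD, n = 3 each), and the log2 difference was 0.95 ± 0.34 SE (95% interval 0.20 to 1.70, limma adjusted p = 0.161). The exact two-sided permutation p was 0.1.

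HSPA8 (chromosome 11, 123057489 to 123063230, minus strand) had 34853, 6889 and 38727 normalized reads in the GOLPH3 libraries and 5454, 53930 and 17592 in the Vector libraries. Its groups overlapped fully, and the lowest library of each group was the P12 one. The log2 difference between groups was 0.28 (95% interval -1.41 to 1.97, limma adjusted p = 0.889). HSPH1 (chromosome 13, 31134974 to 31162388, minus strand), a nucleotide exchange factor of HSP70, had 4265, 1511 and 2370 against 3586, 7956 and 4029. The groups overlapped because GOLPH3 P8 lay above 2 of the 3 Vector libraries, and the log2 difference was -0.97 ± 0.41 SE (limma adjusted p = 0.242).

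DNAJB1 (chromosome 19, 14514770 to 14529770, minus strand), the J-domain protein that loads clients onto HSP70 and also feeds back on HSF1, had 4549, 4591 and 7724 normalized reads against 2600.0, 4121 and 2657. GOLPH3 P13 was high, and the gap between the groups lay between GOLPH3 P8 and Vector P11, 4549 against 4121. The log2 difference was 0.83 ± 0.32 SE (limma adjusted p = 0.186). BAG3 (chromosome 10, 119651370 to 119677819, plus strand), the adaptor that links HSP70 to small heat shock proteins and selective autophagy, had 2119, 1563 and 3668 against 1073, 1911 and 1558. Its groups overlapped, since GOLPH3 P12 lay below Vector P11, and the log2 difference was 0.64 (95% interval -0.14 to 1.42, limma adjusted p = 0.393).

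HSP90AA1 (chromosome 14, 102080738 to 102139699, minus strand), the inducible cytosolic HSP90, had 71194, 20838 and 39328 normalized reads against 33917, 88332 and 37657. GOLPH3 P12 was the lowest of the 6 and Vector P11 the highest, and the log2 difference was -0.32 (95% interval -1.38 to 0.75, limma adjusted p = 0.79). HSPE1 (chromosome 2, 197499994 to 197503457, plus strand), the lid of the mitochondrial chaperonin, had 1242, 820.5 and 1719 against 764, 1571 and 1271. The groups overlapped and the log2 difference was 0.07 (95% interval -0.72 to 0.85, limma adjusted p = 0.948). Its transcript shares 52.9% of its 50-base windows with other genes, and it overlaps its divergent partner HSPD1 on the other strand. The shared windows were 21.4% for HSP90AA1, 15.4% for HSPA8, 6.97% for HSPB1 and at most 2.57% for the remaining tested members. How shared reads were assigned is not given. HSF1, DNAJB1 and HSP90AA1 also overlap a gene on the opposite strand (DGAT1, TECR and WDR20), and whether strand was used in counting is not given in the sources used here.

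HSPB1 (chromosome 7, 76302544 to 76304295, plus strand), the small heat shock protein that holds unfolding clients for HSP70, had 6438, 7986 and 13425 normalized reads in GOLPH3 P8, P12 and P13 against 3712, 1507 and 4469 in Vector P12, P11 and P13. All 3 GOLPH3 libraries exceeded the highest Vector library, and the means of 9283 ± 3669.6 and 3229 ± 1538 (SD, n = 3 each) differed by 2.87 times. The log2 difference was 1.595 ± 0.42 SE (95% interval 0.68 to 2.51), and the limma adjusted p of 0.0509 narrowly missed the threshold. It was 1.11 within the P12 pair, 1.59 within the P13 pair and 2.09 between GOLPH3 P8 and Vector P11.

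Libraries with the same P number deviated together from their group means, with a Pearson r across 11267 genes, which are not independent, of 0.66 for the P12 pair and 0.65 for the P13 pair. It was 0.69 for the remaining libraries, GOLPH3 P8 and Vector P11, whose P numbers differ. Deviations from a group mean cancel out within the group, so this value largely follows from the other pairs. The members were also read within P numbers. With P12, P13 or other as a factor, 5 of 8 members were called by limma (20.9% of all genes), the log2 differences being unchanged by design. HSF1 (adjusted p = 0.00156), DNAJB1 (0.0164), BAG3 (0.0327) and HSPB1 (8.16e-05) rose and HSPH1 (0.000762) fell. Within the P12 and P13 pairs the log2 difference of HSF1 was 0.68 and 0.81, of DNAJB1 0.82 and 1.54, of BAG3 0.54 and 1.24, and of HSPH1 -1.25 and -0.77. Between GOLPH3 P8 and Vector P11, which that fit holds together as the other libraries, DNAJB1 and BAG3 differed by only 0.14 and 0.15, HSF1 by 1.37 and HSPH1 by -0.90. HSPA8 (95% interval -0.28 to 0.85), HSP90AA1 and HSPE1 were not called in that fit either.

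**Figure D2:**
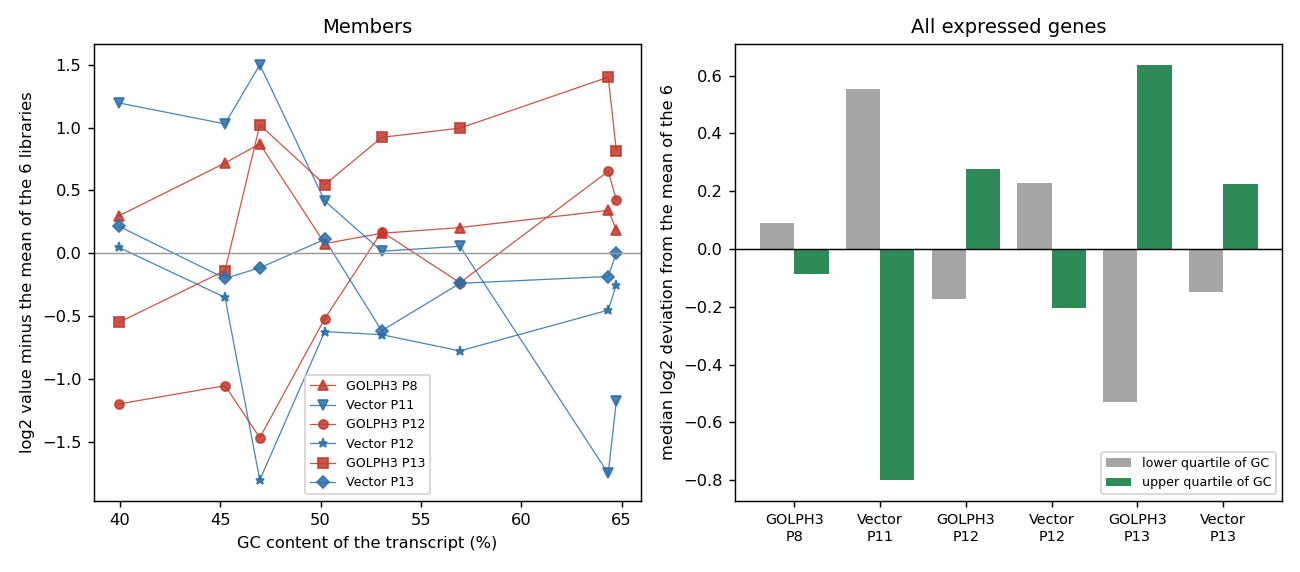
Left, log2 value of each tested member minus its mean over the 6 libraries against the GC content of its transcript (%), with 1 line per library. Right, median log2 deviation of all expressed genes in the lower and upper quartile of GC content per library, which ran from -0.80 in Vector P11 to 0.64 in GOLPH3 P13 for the upper quartile.

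The libraries also differed with the GC content of transcripts. Over 11260 genes with a mean of at least 100 normalized reads, the upper quartile by GC (56.4% and above) deviated by -0.80 in Vector P11 and by 0.64 in GOLPH3 P13 on the log2 scale, as medians. HSF1 (64.7% GC) and HSPB1 (64.3%) are the richest tested members, and both were lowest in Vector P11 and highest in GOLPH3 P13. BAG3 (56.9% GC), also in the upper quartile, was highest in GOLPH3 P13 but lowest in Vector P12 and not in Vector P11. HSPH1, the poorest at 40.0% GC, was highest in Vector P11 but lowest in GOLPH3 P12 and not in GOLPH3 P13. After each library's trend with GC was removed, an alternative added after the data were seen, 1 of 8 members was called by limma (6.16% of all genes). It was HSPB1, at a log2 difference of 0.95 (95% interval 0.49 to 1.41, adjusted p = 0.0183). HSF1 moved from 0.95 to 0.29 (adjusted p = 0.473), DNAJB1 from 0.83 to 0.67, BAG3 from 0.64 to 0.31 and HSPH1 from -0.97 to -0.65. With the GC correction and the P factor together, HSPB1 (0.95, adjusted p = 0.00121) and HSPH1 (-0.65, adjusted p = 0.00998) were called, 2 of 8 members beside 13.6% of all genes, and HSF1, DNAJB1 and BAG3 were not.

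**Figure D3:**
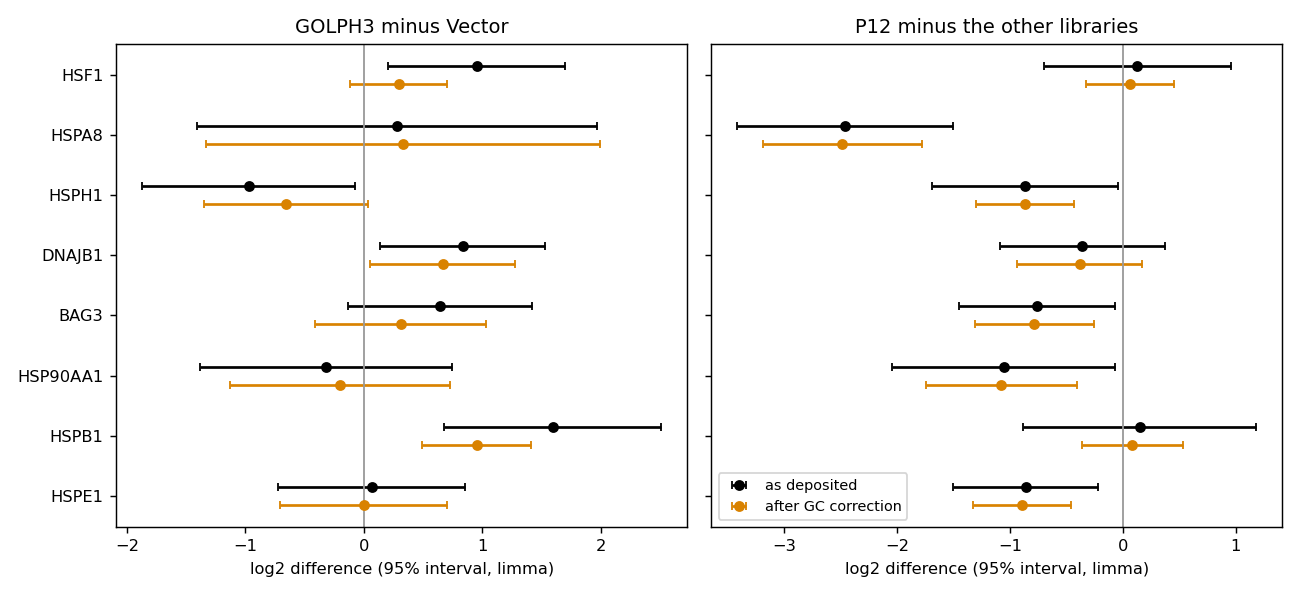
Log2 differences of the 8 tested members with 95% intervals from limma, GOLPH3 minus Vector on the left and P12 minus the other libraries on the right, from values as deposited (black) and after GC correction (orange). HSF1 moved from 0.95 to 0.29 with the correction on the left, while HSPA8 stayed at -2.46 and -2.48 on the right.

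The second comparison set the 2 P12 libraries, 1 of each group, against the other 4, with group as a covariate. It was chosen with earlier results of these data known, so its p-values and ranks are not independent of that choice. HSPA8, HSP90AA1 and HSPE1 were lower in both P12 libraries than in any other, whereas HSF1 and HSPB1 had log2 differences of 0.13 and 0.15. By limma 0 of 8 members and 0% of all genes had an adjusted p under 0.05, and edgeR likewise called 0%. At an unadjusted p under 0.05, 5 of 8 members were lower (HSPA8, HSP90AA1, HSPH1, HSPE1 and BAG3) against 3.21% of all genes. Both P12 libraries lay below all others for 3 of the 8 members and 6.10% of all genes. DESeq2 called 196 genes (1.18% of those with an adjusted p), among them 1 member, HSPA8. After GC correction 2 of 8 members, HSPA8 and HSPE1, were called lower (0.546% of all genes). Against the 2 P13 libraries alone, 2 of 8, again HSPA8 and HSPE1, were called lower (1.52% of all genes).

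HSPA8 was at 6889 and 5454 normalized reads in the P12 libraries and between 17592 and 53930 in the other 4, whose mean was 5.88 times as high. Among the 4247 tested genes with a mean of at least 1000 normalized reads, it had the most negative P12 difference. The log2 difference was -2.46 ± 0.43 SE (95% interval -3.41 to -1.50), with an adjusted p of 0.216 by limma, 0.211 by edgeR and 7.54e-06 by DESeq2. It was -2.48 after GC correction (limma adjusted p = 0.00443) and -2.09 against P13 (0.01). It was -2.41 within the GOLPH3 libraries and -2.50 within the Vector libraries, and the difference between these was 0.08 (95% interval -2.57 to 2.73, limma interaction, adjusted p = 1.00).

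HSP90AA1 had 20838 and 33917 normalized reads in the P12 libraries and 37657 to 88332 in the others. Vector P12 lay just below Vector P13, and the log2 difference was -1.06 (95% interval -2.04 to -0.07, limma adjusted p = 0.658). HSPE1 had 820.5 and 764 against 1242 to 1719. Neither P12 value reached the lowest of the other 4. Its log2 difference was -0.86 ± 0.29 SE (adjusted p = 0.531 by limma, 0.0466 after GC correction and 0.0414 against P13). HSPH1 (-0.87) and BAG3 (-0.76) leaned the same way with P12 values that overlapped the others, DNAJB1 was at -0.36, and HSF1 (0.13) and HSPB1 (0.15) lay near 0. Against P13, HSP90AA1 and HSPH1 were nearer to 0, at -0.53 and -0.41, and HSF1 and HSPB1 turned to -0.32 and -0.51.

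The other chaperone genes were read from lists of 76, of which 70 were tested. In the group comparison limma called 0 of 70, beside 5.07% of all genes. At an unadjusted p under 0.05 there were 1 higher and 2 lower genes, beside 17.6% of all genes in either direction. DESeq2 and edgeR also called 0 of these genes, beside 8.68% and 6.58% of all genes they adjusted. The median log2 difference of the 70 was -0.03, beside 0.46 for the members and 0.02 for all genes. HSP90AB1 was at 0.08, HSPD1 at -0.26 and HSF2, the other heat shock factor, at -0.62, with limma adjusted p of 0.944, 0.739 and 0.409. With the P factor, 11 of the 70 were called higher and 10 lower, HSF2 among the lower ones, in a fit that called 20.9% of all genes. GC correction alone left 1 of the 70 called (BAG6, lower), beside 6.16% of all genes. Together with the P factor, 2 were called higher and 3 lower, beside 13.6% of all genes. HSF2 was no longer called in that fit (limma adjusted p = 0.308). BAG6 had only 0, 3 and 0 reads in the GOLPH3 libraries and 6, 9 and 12 in the Vector libraries, near the floor of 3 reads. It lies in the stretch of low genes around HSPA1A, so its call says little about the transcript.

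Between P12 and the other libraries limma again called 0 of the 70, and 0% of all genes. An unadjusted p under 0.05 was reached by 2 higher and 2 lower genes, beside 4.02% and 3.21% of all genes. DESeq2 called 1 (DNAJA1, lower), beside 1.18% of its genes with an adjusted p, and edgeR called 0. The median was -0.07, against -0.81 for the members and 0.02 for all genes. HSP90AB1, with 43292 and 45407 normalized reads in the P12 libraries and 49962 to 105153 in the others, was lower in both, at -0.79 (adjusted p = 0.747). HSPD1, the chaperonin that HSPE1 caps, was at -0.39 (adjusted p = 0.9) and at -0.07 against P13. DNAJA1, a farnesylated J-domain partner of HSPA8 named after its values were seen, had 1565 and 2610 against 4296 to 9348, a log2 difference of -1.47 (adjusted p = 0.34 by limma, 0.0137 by DESeq2 and 0.00596 after GC correction).

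Lists of other stress programmes were read beside the heat shock genes at P12. The 9 genes of the integrated stress response, which is run by the factor ATF4, summed to 63273 and 39082 normalized reads in GOLPH3 P12 and Vector P12, and to 11298 to 35224 in the others. Their median log2 difference was 1.76, 7 of 9 were higher at an unadjusted p under 0.05 (4.02% of all genes) and 0 of 9 were called by limma or edgeR, while DESeq2, which called 1.18% of its genes, called 2 (TRIB3 and ATF3). After GC correction 4 of the 9, PPP1R15A, TRIB3, SESN2 and ATF3, were called higher, as were 1.11% of all genes. The 16 chaperones and related genes of the endoplasmic reticulum had a median of -0.22 with 0 called by any of the 3 tools. An unadjusted limma p under 0.05 was reached by 1 higher and 1 lower gene, beside 4.02% and 3.21% of all genes. After GC correction, which called 1.66% of all genes in either direction, XBP1 was called higher and MANF lower. The 10 immediate early genes had a median of 0.18 with 0 called by limma or edgeR and 1 higher (KLF6) and 2 lower (FOSB and FOS) by DESeq2, and likewise after GC correction. FOS and FOSB were far lower in Vector P12 (586 and 329 normalized reads) than in GOLPH3 P12 (4477 and 4896). The GOLPH3 P12 values lay above those of Vector P11 (4097 and 3869), so the P12 libraries overlapped the others. In the group comparison 1 of 10 immediate early genes, ZFP36, an mRNA decay factor, was called higher (1.68, limma adjusted p = 0.0264). That fit called 5.07% of all genes in either direction. The medians were 0.61 for the integrated stress response and 0.09 for the endoplasmic reticulum list, with 0 called by limma, DESeq2 or edgeR in those 2 lists. With the P factor, which called 20.9% of all genes, limma called 4 of 9 integrated stress genes and 8 of 10 immediate early genes, all higher, and 3 higher and 2 lower of the 16 endoplasmic reticulum genes.

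**Figure D4:**
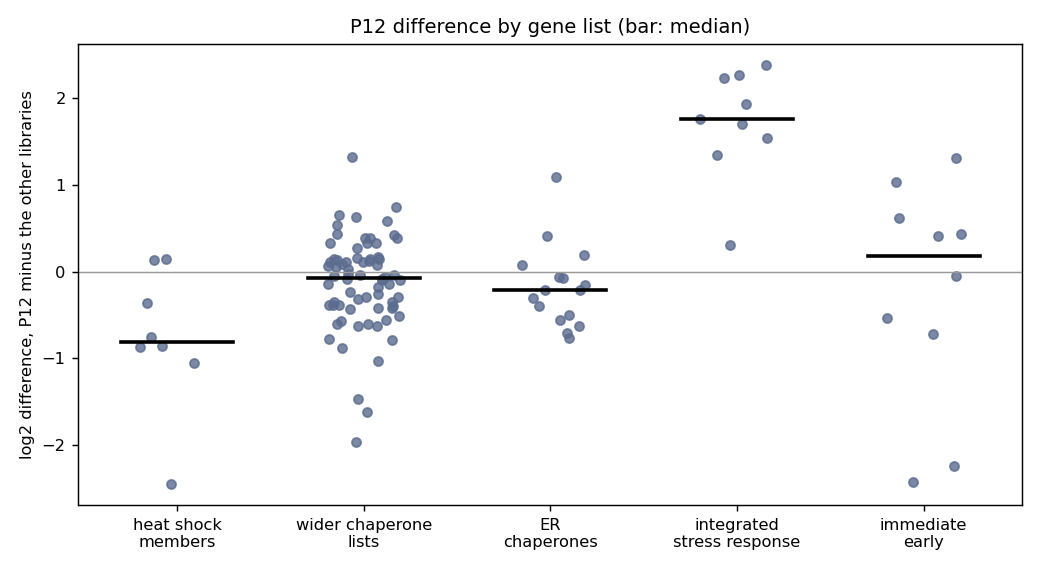
Log2 difference of each tested gene between the P12 and the other libraries, by gene list, with a bar at the median. The medians were -0.81 for the 8 tested heat shock genes, -0.07 for 70 other chaperone genes, -0.22 for the endoplasmic reticulum list, 1.76 for the integrated stress response and 0.18 for the immediate early genes.

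The mean of the tested members, each centred on its own mean, was 0.36, -0.40 and 0.63 on the log2 scale in GOLPH3 P8, P12 and P13 and -0.61, 0.16 and -0.13 in Vector P12, P11 and P13. Among 11149 genes outside the lists with a mean of at least 100 normalized reads, OVGP1 (Pearson r = 0.989), OTX1 (0.987), NOA1 (0.982), MBOAT1 (0.977) and EIF2B5 (0.976) followed this mean most closely over the 6 libraries. EIF2B5, a subunit of the exchange factor for the initiation factor eIF2, had 1513, 1114 and 1647 normalized reads in the GOLPH3 libraries and 981, 1368 and 1101 in the Vector libraries. These likenesses are descriptions over 6 libraries, picked as the highest of many, and the libraries share their depth and base composition effects.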

How the data were processed

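RNA-seq of 6 libraries labelled HCT-116 (3 per group) was analysed from 1 deposited table. Per the submitters' processing notes, the authors used fastp 0.20.0, HISAT2 2.1.0, Cufflinks, featureCounts 1.6.1 and DESeq2 on GRCh38; annotation, strand and multi-mapping settings are not given in the sources used here. The deposited values are a signal per gene, namely read counts divided by a size factor: 100% of nonzero values were whole multiples (tolerance 0.1 of a step), and recovered reads were used for DESeq2 1.42.0 and edgeR 4.0.16. Where an identifier had a second row (44 cases), both were summed. No libraries of a group were alike within sampling noise.

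limma 3.58.1 (R 4.3.3, trend, empirical Bayes) was fitted to log2(normalized reads + 1) over 26536 genes with at least 1 in at least 3 libraries, adjusted by Benjamini-Hochberg, so folds of low genes are understated. GC correction removed a lowess curve (span 0.3) of each library's deviation on transcript GC. The limma, edgeR and DESeq2 fits were tried on simulated data with a set spread that was not estimated from these libraries. The fits with GC correction or the P factor were not tried there. Coordinates, lengths and GC came from GENCODE 29, promoters from RefSeq. Alternatives were other normalizations, filters, a pseudocount of 0.1, covariates and each library left out.

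The members and lists, the P12 comparison and the rule for named genes (members, GOLPH3, HSP90AB1, HSPD1, HSPA6, HSF2, list genes with an adjusted p under 0.05 and the 5 most alike genes) were chosen with earlier results of these data known. The cell markers were chosen in the same way, and KRT18 among them was also called higher in the GOLPH3 group.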

Additional observations from a re-analysis of the deposited data

How the results depend on the processing

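The number of libraries, 3 per group and 2 at P12, limited the precision for the 8 tested members, each of which had at least 742 reads in every library. Of the member values under other settings, 114 in the group comparison kept their direction and side of the threshold, 13 newly passed it and 9 reversed, and in the P12 comparison these numbers were 116, 5 and 7. In the group comparison 1346 genes and 0 members were called. The genes called were 5549 with the P factor, 3609 with GC correction and the P factor, and 170 with at least 10 in every library, and 459 to 1528 with 1 library left out (459 without Vector P12, 481 without Vector P13, 881 without GOLPH3 P13 and 895 without Vector P11). The members called were 1 by DESeq2, 1 with GC correction, 1 without a filter, 5 with the P factor, 2 with GC correction and the P factor, and 0 to 1 with 1 library left out (HSPB1, without GOLPH3 P8 or without Vector P13). The replicate block called 1 member, HSPB1 (adjusted p = 0.0446), and 1081 genes. The replicate numbers did not pair the libraries, since same-numbered deviations correlated at -0.51, -0.29 and 0.65, and not every library correlated best with its own number.

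Without a single library some values also moved by over 1.5 times. BAG3 between groups was 0.31 without GOLPH3 P13 and 0.41 without Vector P12, HSF1 0.60 without Vector P11, and HSPH1 -0.61 without GOLPH3 P12 and -0.62 without Vector P11. DNAJB1 at P12 was -0.19 without GOLPH3 P13 and -0.22 without Vector P11. HSPA8 between groups ranged from -0.55 to 1.102 with 1 library left out and was -0.08 without GOLPH3 P8, -0.16 without GOLPH3 P13 and -0.55 without Vector P12. HSP90AA1 ranged from -0.76 to 0.13 and was 0.13 without GOLPH3 P12 and 0.12 without Vector P11. HSPE1 ranged from -0.23 to 0.34 and was -0.19 without GOLPH3 P13 and -0.23 without Vector P12, and -0.0025 with GC correction, alone or with the P factor. For the P12 comparison, the genes called were 0, but 196 by DESeq2, 440 with GC correction and 903 against P13, and 0 to 23 with 1 library left out (23 without GOLPH3 P13). The members called were 0, but 1 by DESeq2, 2 with GC correction and 2 against P13, and 0 with any library left out. HSF1 was -0.32 against P13, from -0.15 to 0.35 with 1 library left out, -0.08 without Vector P12 and -0.15 without Vector P11. HSPB1 was -0.51 against P13, from -0.24 to 0.52 with 1 library left out, -0.03 without GOLPH3 P8, -0.22 without Vector P12 and -0.24 without Vector P11. The causes of these shifts were not tested. Summing HSPA1A and HSPA1B gave no value, as both were at or under 3 reads.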
